A study of Mus musculus with 104 samples.

Results

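Striatum was compared with cortex within the same 12-month-old BAC-CAG mice, gene by gene. The comparison used 16 of the 104 libraries of the series: every BAC-CAG library of the 12-month count table, 8 from striatum and 8 from cortex, joined through the animal tag in their titles into 8 pairs (4 females and 4 males). The 16 libraries of 8 WT littermates in the same table, again 8 from striatum and 8 from cortex of 4 females and 4 males, gave the reference contrast. All mice were of the FvB background and were perfused with PBS before dissection. The WT mice carried no transgene. BAC-CAG mice carry a bacterial artificial chromosome with the human huntingtin gene and an expanded, uninterrupted CAG repeat, on top of their own mouse Htt alleles, and the transgene is driven by its own human regulatory sequence rather than by a cell-type-specific promoter. Whether the animals came from 1 founder line, and where the transgene is inserted, is not given in the sources used here. Other animals of the series served as side comparisons: BAC-CAG and WT mice at 6 months (8 pairs each) and, at 12 months, 4 BACHD mice (another human huntingtin BAC model) with 4 WT littermates.

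The striatum is built mostly of GABAergic spiny projection neurons, which fall into a direct pathway that expresses the dopamine receptor D1 with substance P and dynorphin, and an indirect pathway that expresses the dopamine receptor D2, an adenosine receptor and enkephalin. Cortex is built mostly of glutamatergic pyramidal neurons arranged in layers, together with several kinds of local interneuron. In Huntington's disease the spiny projection neurons are the most affected cells, and a lower level of the genes that mark them is a known feature of mouse models, which makes the striatum-to-cortex contrast a measure of striatal identity. In tissue RNA, fewer cells of a type and less RNA per cell cannot be told apart.

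Total counts ranged from 29.3 to 39.8 M per BAC-CAG striatal library and from 32.4 to 45.7 M per BAC-CAG cortical library, and WT libraries lay between 26.5 and 40.8 M. The tissue labels were checked with marker genes. For the striatal markers Ppp1r1b, Drd1, Drd2, Adora2a, Penk, Tac1, Rgs9 and Pde10a, every BAC-CAG striatal library lay above every BAC-CAG cortical library, and the same held in WT. Of 8 cortical markers, 6 separated the tissues fully in BAC-CAG mice and 8 did so in WT mice; Neurod6 and Fezf2 overlapped in BAC-CAG mice. The genotype labels were checked with Msantd1, which overlaps the annotated Htt gene. It ranged from 9.41 to 27.6 CPM, the counts scaled to the normalised library size, in BAC-CAG striatum against 2.29 to 3.41 CPM in WT striatum, and from 3.83 to 10.6 CPM in BAC-CAG cortex against 1.23 to 2.32 CPM in WT cortex, with no overlap in either tissue.

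The striatal libraries of BAC-CAG replicates 2 and 7, both males, stood apart. Both lay above all 14 other striatal libraries of the table for 19 of the 24 listed markers of cortical excitatory neurons (79.2%), while 8.14% of all genes did so. The summed level of these 24 markers was 5031 CPM in replicate 2 and 5507 CPM in replicate 7, against 2809 to 3377 CPM in the other 6 BAC-CAG striatal libraries, 2819 to 4033 CPM in WT striatum and 9141 to 10556 CPM in BAC-CAG cortex. The same 2 libraries lay below the other 14 for 15 of 24 myelin genes, 8 of 9 cholinergic genes and 4 of 46 genes of striatal projection neurons, beside 4.84% of all genes. In the opposite sense, the cortical libraries of BAC-CAG replicates 1 and 2 and of WT replicate 6 had the highest mean log2(CPM + 1) over the genes of striatal projection neurons (5.49, 5.48 and 5.76, against 5.02 to 5.21 in the other 13 cortical libraries). Counts by size, list medians that moved by over 1.5 times and differences of contrasts that rest on these libraries are therefore given with and without BAC-CAG replicates 2 and 7. The WT group kept all 8 pairs in these comparisons. It thus kept replicate 6, named above, and replicate 4, whose striatal library had 189 CPM of the cortical marker Slc17a7. Values without replicates 2 and 7 therefore set a reduced BAC-CAG group beside an unreduced WT group. The part of the cell makeup of these libraries in the results was not tested beyond leaving out BAC-CAG replicates 2 and 7.

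Striatum and cortex of BAC-CAG mice differed in most expressed genes. Of 18263 genes tested, 11706 (64.1%) passed an adjusted p of 0.05 in the edgeR quasi-likelihood test with the animal as a block; 6086 (33.3%) were higher in striatum and 5620 (30.8%) were higher in cortex. With a log2 difference of at least 1 in size, a 2-fold difference, 2375 genes (13%) remained, 1252 (6.86%) higher in striatum and 1123 (6.15%) higher in cortex. Without replicates 2 and 7 there were 2741 such genes (14.9%), 1411 higher in striatum and 1330 in cortex, beside 15.0% in WT mice. The striatal and cortical libraries did not overlap at all for 4950 genes (27.1%). A log2 difference of 5 or more was seen for 45 genes towards striatum and 6 towards cortex. Without replicates 2 and 7 these numbers were 69 and 50, and in WT mice they were 80 and 41. Protein-coding genes made up 82% of the genes 2-fold higher in striatum, 76.9% of those 2-fold higher in cortex and 80.7% of all genes tested. Long intergenic RNAs were 5.43%, 6.5% and 2.85% of the same 3 groups.

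Leaving aside genes under a mean of 5 CPM, the T-cell coreceptor gene Cd4 had the largest difference towards striatum. Its level was 51.9, 79.3 and 103 CPM (lowest, median and highest) in BAC-CAG striatum and 0.252, 0.422 and 0.969 CPM in cortex. No striatal library came near a cortical one, and the log2 difference was 7.24 (SE 0.19). The indirect-pathway receptor Drd2 was also among the 10 genes with the largest differences, with 110, 157 and 206 CPM in striatum and 0.771, 0.845 and 3.86 CPM in cortex, a log2 difference of 6.56 (SE 0.31) in BAC-CAG and 6.93 in WT. Rgs9, the regulator of G-protein signalling that shortens dopamine and opioid receptor signals in spiny neurons, was at 376, 547 and 752 CPM against 4.06, 5.96 and 16.5 CPM, a log2 difference of 6.28 (SE 0.28). The adenosine receptor gene Adora2a had 108, 173 and 292 CPM against 1.62, 1.89 and 6.73 CPM, a log2 difference of 6.15 (SE 0.28). The other genes at the top were the developmental regulators Isl1 (6.70, SE 0.31), Lhx8 (6.37, SE 0.33) and Six3 (5.92, SE 0.45), the synaptic protein gene Syndig1l (6.30, SE 0.31), Sh3rf2 (6.17, SE 0.22) and the transporter gene Slc10a4 (5.98, SE 0.28). Isl1, Lhx8 and Six3 had at least 1 cortical library with no count, so that their fitted log2 differences depend on the fit's prior count. All 10 had adjusted p-values between 2.27e-10 and 5.31e-07 (edgeR quasi-likelihood, Benjamini-Hochberg).

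Ppp1r1b encodes DARPP-32, the phosphatase inhibitor that integrates dopamine signals. It stood at 932, 1359 and 1752 CPM in BAC-CAG striatum and at 70.1, 84.5 and 122 CPM in cortex, a log2 difference of 3.92 (SE 0.13). The striatal phosphodiesterase gene Pde10a gave 4.04 (SE 0.14), and the neuronal calcium sensor gene Hpca gave 1.33 (SE 0.06). The myelin gene Mbp (1.49, SE 0.18) was also among the 5 most abundant genes that were 2-fold higher in striatum. On the cortical side the most abundant included Camk2a, encoding a postsynaptic kinase (-1.21, SE 0.10), Snap25, a vesicle fusion protein (-1.20, SE 0.09), the cyclase gene Adcy1 (-1.44, SE 0.10) and the vesicular glutamate transporter gene Slc17a7 (-3.79, SE 0.53).

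The large cortical contrasts were the ones most affected by the 2 outlying striatal libraries. Slc17a7 was at 1128, 1321 and 1405 CPM in BAC-CAG cortex and at 31.3, 79.3 and 692 CPM in striatum, where replicates 2 and 7 held 458 and 692 CPM. The log2 difference was -3.79 with all 8 pairs, -4.55 without those 2 pairs and -5.17 in WT. Igfn1, an immunoglobulin and fibronectin domain gene, had 68.4, 93.5 and 109 CPM in cortex and 0.264, 1.05 and 12.7 CPM in striatum; its difference went from -5.10 (SE 0.57) to -6.83 without the 2 pairs, beside -6.93 in WT. Vip, the peptide of a class of cortical interneurons, went from -3.89 (SE 0.48) to -5.34, beside -5.61 in WT. Neurod6, a transcription factor of pyramidal neurons, went from -3.03 (SE 0.43) to -3.93, beside -4.73 in WT. In each of these genes the 2 highest striatal libraries were replicates 2 and 7. Other genes with large cortical contrasts were Ntn5 (-4.80, SE 0.43), Slc30a3, the zinc transporter of glutamatergic vesicles (-4.49, SE 0.57), Adam33 (-4.26, SE 0.30), Tmem215 (-4.17, SE 0.31), Prdm8 (-4.11, SE 0.46), Tspan11 (-4.07, SE 0.33), the cortical patterning gene Emx1 (-3.99, SE 0.37) and Neurod1 (-3.98, SE 0.46). Ntn5, Slc30a3 and Neurod1 share bases with a neighbouring gene, and reads from such pairs cannot be told apart without knowing whether the counting used the strand.

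**Figure D1:**
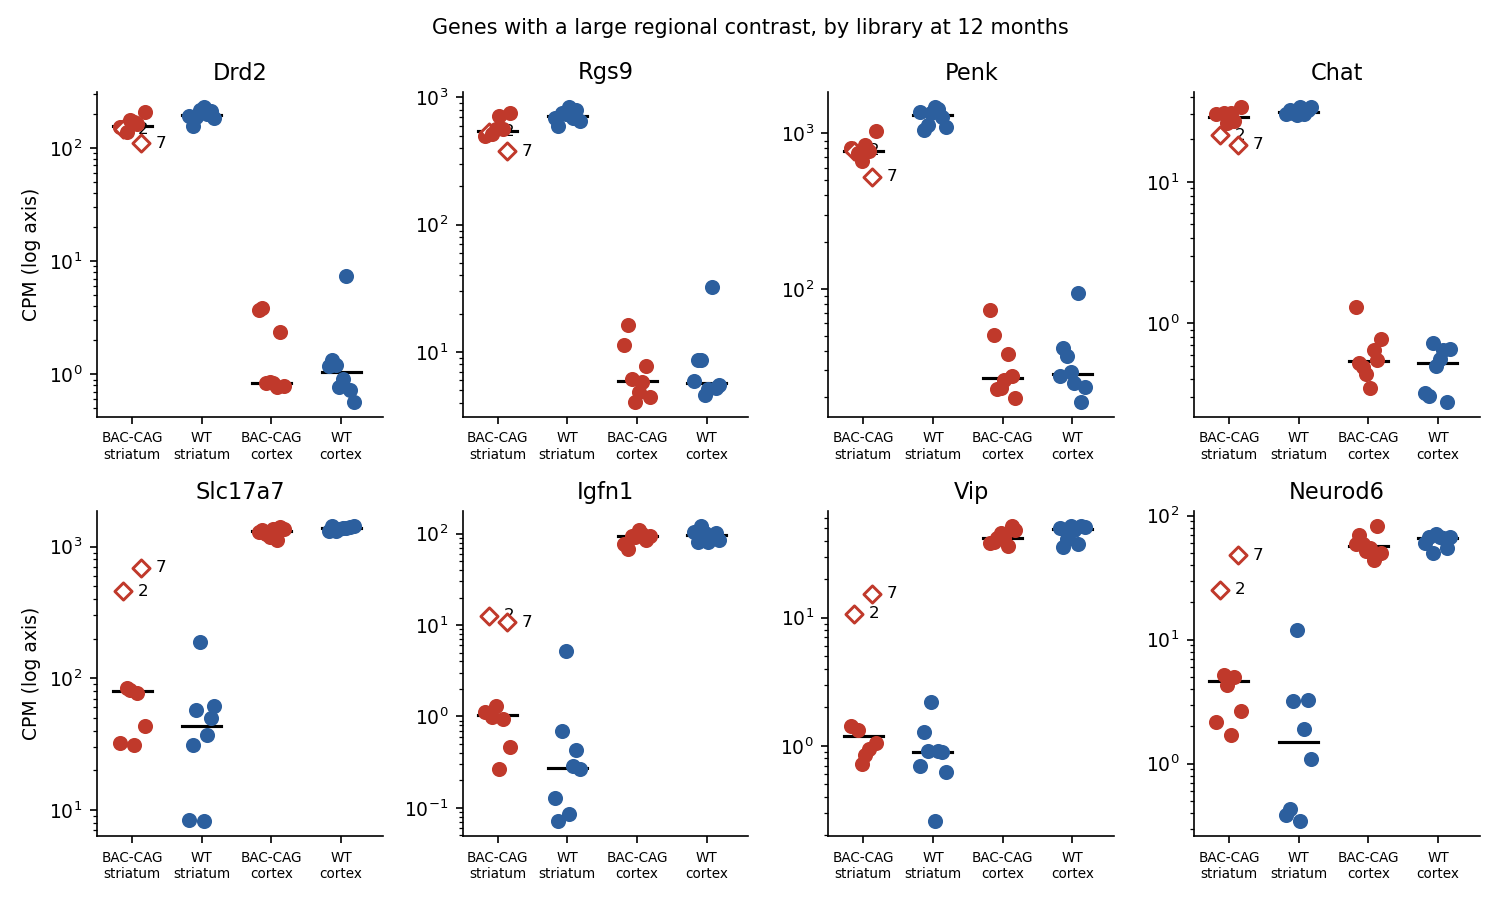
Level of 8 genes in each library at 12 months, in CPM on log axes, by genotype and tissue; each point is a library and the BAC-CAG striatal libraries of replicates 2 and 7 carry their numbers. Slc17a7, Igfn1, Vip and Neurod6 have replicates 2 and 7 highest among BAC-CAG striatal libraries (458 and 692 CPM for Slc17a7), while Drd2, Rgs9, Penk and Chat are far higher in all striatal libraries than in cortex.

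The annotated start regions of 4 genes with a strong contrast are shown, and that of Shank3, described below for a contrast that DESeq2 called different from WT. Which start these genes use in striatum or cortex was not tested. Each runs from 250 bases before to 50 after the RefSeq start, on GRCm38.p6, read 5′ to 3′ on the gene's strand. Capitals mark 3 core promoter motifs on either strand: the TATA box as TATAAA, the box of nuclear factor Y as CCAAT, and the GC box as GGGCGG. Their reverse complements are in capitals too, and matches that overlap run together.
Drd2, chr9:49340153-49340452, plus strand: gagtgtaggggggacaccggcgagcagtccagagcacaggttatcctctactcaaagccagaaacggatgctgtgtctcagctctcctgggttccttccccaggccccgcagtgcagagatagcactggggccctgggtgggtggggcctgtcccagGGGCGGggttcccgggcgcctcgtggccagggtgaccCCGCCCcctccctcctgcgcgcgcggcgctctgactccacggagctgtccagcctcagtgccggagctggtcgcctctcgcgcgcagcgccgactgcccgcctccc
Rgs9, chr11:109298132-109298431, minus strand: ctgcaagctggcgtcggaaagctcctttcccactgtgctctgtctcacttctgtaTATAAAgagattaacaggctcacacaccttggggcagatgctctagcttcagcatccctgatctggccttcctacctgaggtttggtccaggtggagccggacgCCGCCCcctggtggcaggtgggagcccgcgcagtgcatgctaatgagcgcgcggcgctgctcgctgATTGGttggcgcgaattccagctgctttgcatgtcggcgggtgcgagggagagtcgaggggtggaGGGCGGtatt
Slc17a7, chr7:45163671-45163970, plus strand: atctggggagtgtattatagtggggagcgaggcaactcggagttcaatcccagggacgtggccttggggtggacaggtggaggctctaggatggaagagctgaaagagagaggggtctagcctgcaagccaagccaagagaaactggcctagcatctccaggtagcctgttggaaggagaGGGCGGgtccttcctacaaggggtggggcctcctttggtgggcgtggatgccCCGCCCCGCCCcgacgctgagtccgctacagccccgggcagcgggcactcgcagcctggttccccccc
Vip, chr10:5638968-5639267, plus strand: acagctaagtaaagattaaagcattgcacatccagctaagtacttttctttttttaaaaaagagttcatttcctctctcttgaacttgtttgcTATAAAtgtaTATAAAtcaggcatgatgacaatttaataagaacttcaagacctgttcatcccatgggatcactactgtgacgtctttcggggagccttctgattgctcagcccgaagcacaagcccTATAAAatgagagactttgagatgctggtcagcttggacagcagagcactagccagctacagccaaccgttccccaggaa
Shank3, chr15:89499358-89499657, plus strand: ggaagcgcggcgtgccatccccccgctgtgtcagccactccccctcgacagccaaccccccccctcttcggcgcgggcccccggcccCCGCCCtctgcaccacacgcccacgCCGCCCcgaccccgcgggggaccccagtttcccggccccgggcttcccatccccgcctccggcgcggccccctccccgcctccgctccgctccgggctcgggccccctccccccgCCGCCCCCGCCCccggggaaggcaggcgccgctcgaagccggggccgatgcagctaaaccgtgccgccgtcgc
Vip holds 3 TATAAA matches and no GC box, Drd2, Slc17a7 and Shank3 hold GC boxes and no TATAAA, and Rgs9 holds all 3 motifs. TATAAA on either strand was present in 13.6% of all 300-base promoters of the table, in 9.1% of 11978 tested genes with a promoter, in 33 of 273 (12.1%) of the striatal genes and in 39 of 255 (15.3%) of the cortical genes of the regional set defined below. For GGGCGG the shares were 35.7%, 66%, 52% and 52.5%, and for CCAAT they were 37.4%, 42.1%, 35.5% and 35.7%. The striatal and cortical genes thus had nearly the same shares of GC and CCAAT boxes. A match is only a match of letters in this window.

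Of the genes of striatal projection neurons, 45 of 46 could be tested. Of these, 42 were higher in striatum and 2 in cortex, with a median log2 difference of 2.68 (median over all genes tested 0.02). Over all genes tested, 33.3% were higher in striatum and 30.8% in cortex. Rarb, the retinoic acid receptor of the striatum, was at 59.8, 82.9 and 92.5 CPM in striatum and 5.47, 5.78 and 9.36 CPM in cortex, a log2 difference of 3.63 (SE 0.08). The GTPase gene Rasd2 gave 2.37 (SE 0.06), the sodium channel subunit gene Scn4b 2.55 (SE 0.10) and Gnal, the G protein that couples dopamine and adenosine receptors to cyclase, 2.09 (SE 0.06). None of the striatal libraries overlapped the cortical ones for these 4 genes. In WT mice the list's median was 2.76, and in BAC-CAG mice without replicates 2 and 7 it was 2.78.

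Both output pathways were represented. Of 8 tested indirect-pathway genes, 7 were higher in striatum, with a median log2 difference of 5.10, as were 9 of 10 direct-pathway genes, with a median of 2.07. The share over all genes tested was 33.3%. Penk, the enkephalin precursor of the indirect pathway, was at 528, 771 and 1031 CPM in BAC-CAG striatum and 19.7, 26.8 and 72.6 CPM in cortex, a log2 difference of 4.57 (SE 0.23); the orphan receptor gene Gpr6 gave 5.72 (SE 0.12). In the direct pathway, Drd1 gave 4.55 (SE 0.21), the substance P precursor gene Tac1 4.73 (SE 0.22) and the dynorphin precursor gene Pdyn 2.12 (SE 0.09). The lists for the 2 striatal compartments held few genes: 4 of 7 striosome genes were higher in striatum, among them the mu opioid receptor gene Oprm1 (2.00, SE 0.15), and 2 of 5 matrix genes were.

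Signalling and regulatory genes of the striatum leaned the same way, beside 33.3% of all genes higher in striatum and 30.8% in cortex. In the list of dopamine and cAMP signalling, 26 of 35 genes were higher in striatum and 7 in cortex (median 1.19). Of 21 tested striatal transcription factors, 18 were higher in striatum and 2 in cortex (median 2.40). Retinoid signalling was more mixed, with 12 of 18 genes higher in striatum and 6 in cortex (median 0.45), the binding protein gene Crabp1 leading at 3.87 (SE 0.29). All 9 genes of cholinergic neurons were higher in striatum, which holds the large aspiny cholinergic interneurons. Chat, the enzyme that makes acetylcholine, was at 18.3, 28.6 and 34 CPM against 0.346, 0.539 and 1.3 CPM, a log2 difference of 5.42 (SE 0.14), and the choline transporter gene Slc5a7 gave 4.97 (SE 0.12).

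On the cortical side, 21 of 24 genes of cortical excitatory neurons were higher in cortex and 1 in striatum, with a median log2 difference of -2.07. Among all genes tested, 30.8% were higher in cortex and 33.3% in striatum. Without replicates 2 and 7 the median was -2.47, and in WT mice -2.63. Mef2c, a transcription factor of pyramidal neurons, was at 645, 770 and 849 CPM in cortex and 149, 181 and 348 CPM in striatum, a log2 difference of -1.93 (SE 0.12). Of 12 upper-layer genes, 10 were higher in cortex (median -1.68), such as the secreted Wnt activator gene Rspo1 (-2.15, SE 0.12) and Lamp5 (-1.29, SE 0.07). The 19 deep-layer genes did not share a direction: 8 were higher in striatum and 7 in cortex (median -0.11, -0.17 without replicates 2 and 7 and -0.35 in WT). Syt6 (3.32, SE 0.14) and Foxp2 (3.31, SE 0.21), which deep-layer neurons share with spiny neurons, were among those higher in striatum.

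Genes of cortical-type interneurons were divided between the tissues, as were all genes tested (33.3% higher in striatum and 30.8% in cortex). Of 20 genes, 6 were higher in striatum and 9 in cortex (median -0.30, -0.16 without replicates 2 and 7 and -0.13 in WT). The GABA synthesis and transport genes Gad1 (0.96, SE 0.07), Gad2 (1.57, SE 0.09) and Slc32a1 (1.58, SE 0.08) were higher in striatum, as was Reln (0.79, SE 0.06). The serotonin receptor gene Htr3a, which marks a class of cortical interneurons, was higher in cortex (-2.04, SE 0.13). Neuropeptide precursors were likewise divided, 8 of 25 higher in striatum and 13 in cortex (median -0.32). None of 20 immediate early genes was higher in striatum and 13 were higher in cortex (median -0.66). Bdnf, a growth factor of cortical neurons, was at 16.5, 20.2 and 27.4 CPM in cortex and 1.04, 1.62 and 10.3 CPM in striatum, with replicates 2 and 7 highest among the latter; its log2 difference was -2.84 (SE 0.34), and -3.73 without them.

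Receptors and channels were distributed over both tissues, as were all genes tested (33.3% higher in striatum and 30.8% in cortex). Of 24 glutamate receptor genes, 13 were higher in striatum and 11 in cortex: Grm5 (0.95, SE 0.05), Grm4 (1.49, SE 0.07) and Gria1 (0.90, SE 0.07) were higher in striatum. Of 16 GABA receptor genes, 9 were higher in striatum and 6 in cortex, where the subunit gene Gabra3 (-1.25, SE 0.11) was found. Potassium channels leaned to cortex, with 32 of 55 genes higher there and 17 in striatum (median -0.45). The channel genes with the smallest p-values were nevertheless striatal, such as Kcnab1 (2.43, SE 0.09), Kcna4 (1.99, SE 0.07) and Kcnj2 (1.85, SE 0.09). Sodium and calcium channels had 18 of 35 genes higher in striatum and 14 in cortex, with the ryanodine receptor gene Ryr3 at 3.13 (SE 0.15) and Cacng4, an AMPA receptor accessory subunit, at 2.05 (SE 0.07).

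Glial and vascular genes also differed by region. Of all genes tested, 33.3% were higher in striatum and 30.8% in cortex in BAC-CAG mice, and 34.5% and 33.4% in WT mice. Of 24 myelin genes, 23 were higher in striatum, whose dissection includes the fibre bundles that cross it, and the median was 1.48 with all pairs and 1.72 without replicates 2 and 7. Microglial genes were slightly higher in striatum for 12 of 20 and lower for 1 (median 0.15), with the lysosomal gene Cd68 leading (0.94, SE 0.08). In WT mice 19 of 20 were higher and 1 lower (median 0.36). Astrocyte genes were higher in cortex for 11 of 20 and in striatum for 4 (median -0.18), against 8 and 6 in WT (median -0.08). Crym, which striatal astrocytes and some neurons express, was much higher in striatum (2.74, SE 0.24), while Aldoc (-0.32, SE 0.03) was higher in cortex. Of 18 endothelial genes, 13 were higher in cortex and none in striatum (median -0.22), and so were 7 of 15 mural and meningeal genes, again with none higher in striatum. In WT mice 5 of 18 endothelial genes were higher in cortex and 1 in striatum (median -0.07). Of 16 mural and meningeal genes tested in WT, 4 were higher in cortex and 1 in striatum. Genes of choroid plexus and ependyma were higher in striatum for 10 of 13 tested (median 1.72). The median was 2.85 without replicates 2 and 7, and 2.61 over the 14 genes tested in WT. Each fit applied its own low-count filter, so these medians can be over different genes. The list's summed level ran from 41.7 to 1652 CPM between BAC-CAG striatal libraries and from 72.3 to 1746 CPM between WT ones, so that this list followed single libraries. The 13 ubiquitous reference genes had a median of 0.02, 4 higher in each tissue.

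**Figure D2:**
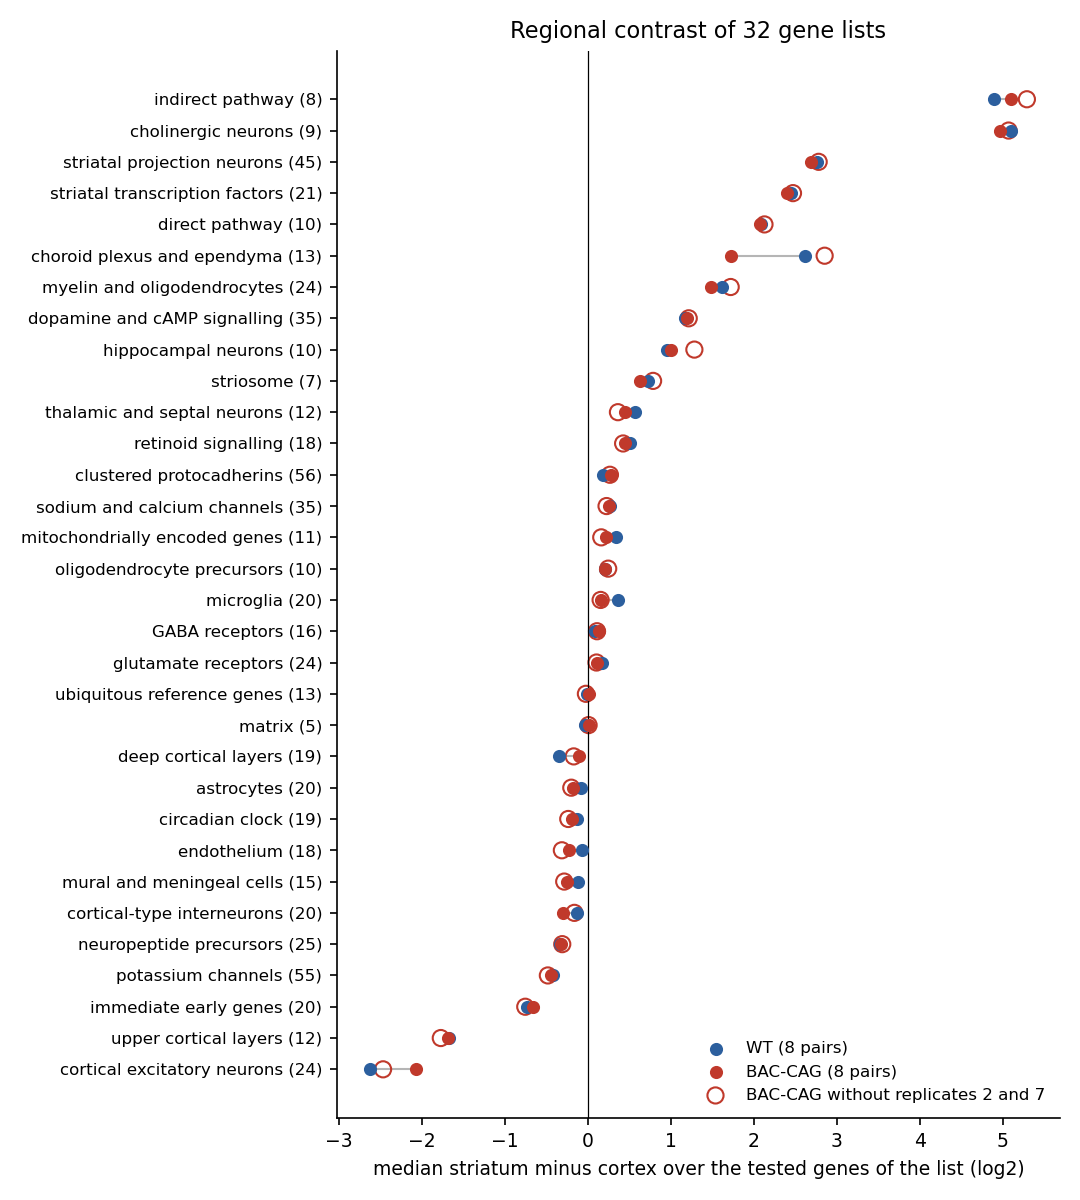
Median log2 difference, striatum minus cortex, over the tested genes of 32 lists (number of tested genes in brackets) in WT mice, BAC-CAG mice and BAC-CAG mice without replicates 2 and 7. Indirect-pathway genes (5.10 in BAC-CAG) and cholinergic genes (4.97) lie furthest to the right and cortical excitatory genes (-2.07, and -2.63 in WT) furthest to the left; the 3 symbols of a list mostly lie close together.

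The direction of the contrast was nearly the same in WT mice. There, 12403 of 18252 genes (68.0%) passed the test, 6306 (34.5%) higher in striatum and 6097 (33.4%) in cortex, and 2738 (15.0%) passed with a 2-fold difference, 1457 (7.98%) and 1281 (7.02%) in the 2 directions. Of 18028 genes tested in both genotypes, 10463 were called in both, and 10459 of these had the same direction. The 4 exceptions had small differences: Zcwpw1 and Vamp8 were higher in cortex in BAC-CAG and in striatum in WT (-0.21 and 0.28 for Vamp8), while Slco4c1 and Gpr161 were the reverse (0.18 and -0.14 for Gpr161). A further 1134 genes were called in BAC-CAG mice and not in WT, and 1807 in WT and not in BAC-CAG, which is no test of a difference. Of the WT genes with a 2-fold contrast 81.9% also had one in BAC-CAG mice, and of the BAC-CAG genes 93.9% had one in WT; without replicates 2 and 7 these shares were 88.7% and 90.3%. Across genes, which are not independent replicates, the log2 differences of the 2 genotypes had a Pearson r of 0.972, and of 0.987 over the 12173 genes at a mean of 5 CPM or more.

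**Figure D3:**
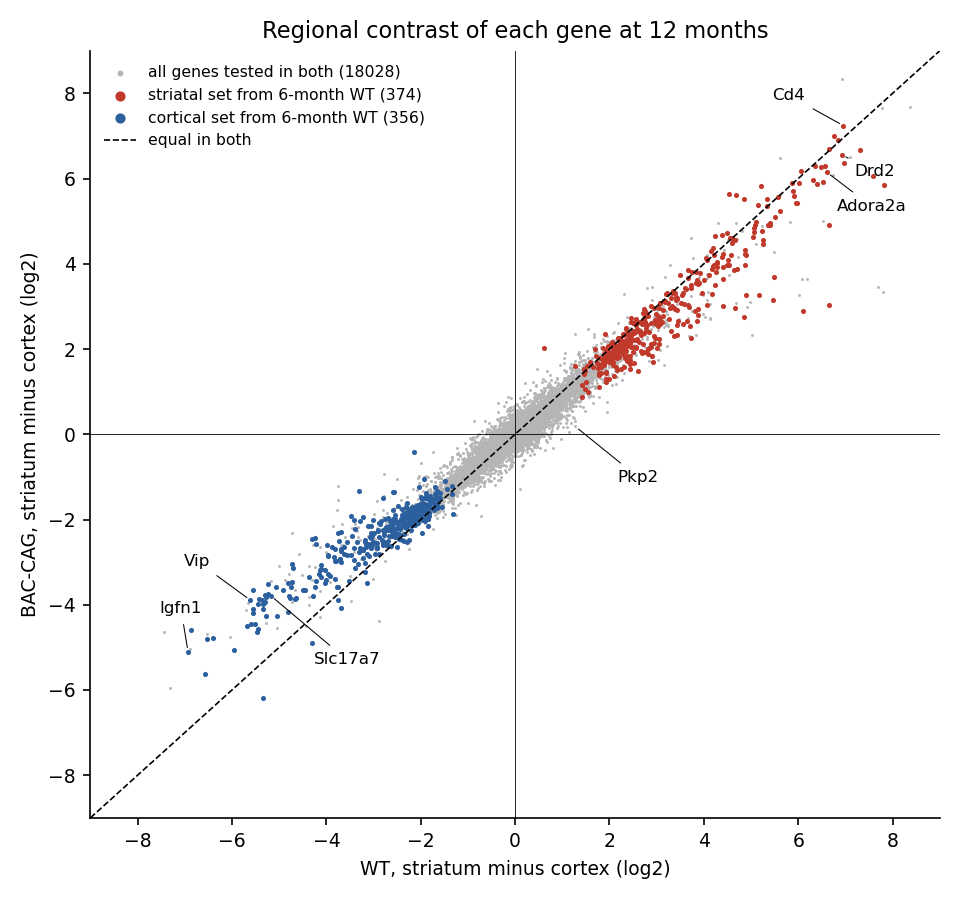
Log2 difference between striatum and cortex of every gene tested in both genotypes, WT on the horizontal and BAC-CAG on the vertical axis, with the line of equality. The 18028 points follow the line (r = 0.972 across genes), and genes far to the left such as Slc17a7 (-5.17 in WT, -3.79 in BAC-CAG) and Vip lie above it, nearer to 0 in BAC-CAG mice.

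The size of the contrast was smaller in BAC-CAG mice for 63.5% of the genes tested in both genotypes, and for 52.7% once replicates 2 and 7 were left out. A regional set was taken from other animals, the WT mice at 6 months. It held 374 striatal and 356 cortical genes. Each had a log2 contrast of at least 2 and a mean of at least 1 CPM there. Genes thus entered only through a large contrast in the WT genotype, and no set chosen in BAC-CAG mice was scored. The part of this choice in the smaller contrasts below was not tested. In BAC-CAG mice at 12 months, all 374 striatal and 355 of 356 cortical genes were called in the same direction, against 373 and 356 in WT mice. The striatal genes had a median log2 difference of 2.47 in BAC-CAG, 2.68 without replicates 2 and 7, and 2.77 in WT. The cortical genes had -2.17, -2.51 without the 2 replicates, and -2.58 in WT. The contrast was smaller in BAC-CAG mice for 306 of the striatal genes (81.8%) and 325 of the cortical genes (91.3%). Without the 2 replicates these shares were 63.1% and 57.0%, beside the 52.7% of all genes.

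The set was also scored in each animal, as the median difference of log2(CPM + 1). For the striatal genes the BAC-CAG pairs gave 1.61, 1.98 and 2.27 (lowest, median and highest), and the mean was 1.94 (SD 0.26, n = 8) against 2.11 (SD 0.19, n = 8) in WT, whose pairs ran from 1.83 to 2.29. The 2 lowest BAC-CAG animals were replicates 7 (1.61) and 2 (1.62), followed by replicate 1 (1.77). For the cortical genes, replicates 7 and 2 stood at -1.08 and -1.27, the other 6 BAC-CAG animals between -2.18 and -1.86, and the WT animals between -2.24 and -1.81. The cortical means were -1.81 (SD 0.41, n = 8) in BAC-CAG, -2.02 (SD 0.12, n = 6) without the 2 replicates and -2.04 (SD 0.15, n = 8) in WT. The slope of each animal's contrast on the WT contrast at 6 months gave the same order: 0.604 and 0.608 in replicates 7 and 2, 0.795 to 0.978 in the other BAC-CAG animals, and 0.815 to 1.03 in WT. The smaller mean cortical contrast of BAC-CAG mice thus came with 2 animals. For the striatal genes the mean without them was 2.05 (SD 0.19, n = 6), and the ranges of the genotypes overlapped. These scores are descriptions with no test.

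**Figure D4:**
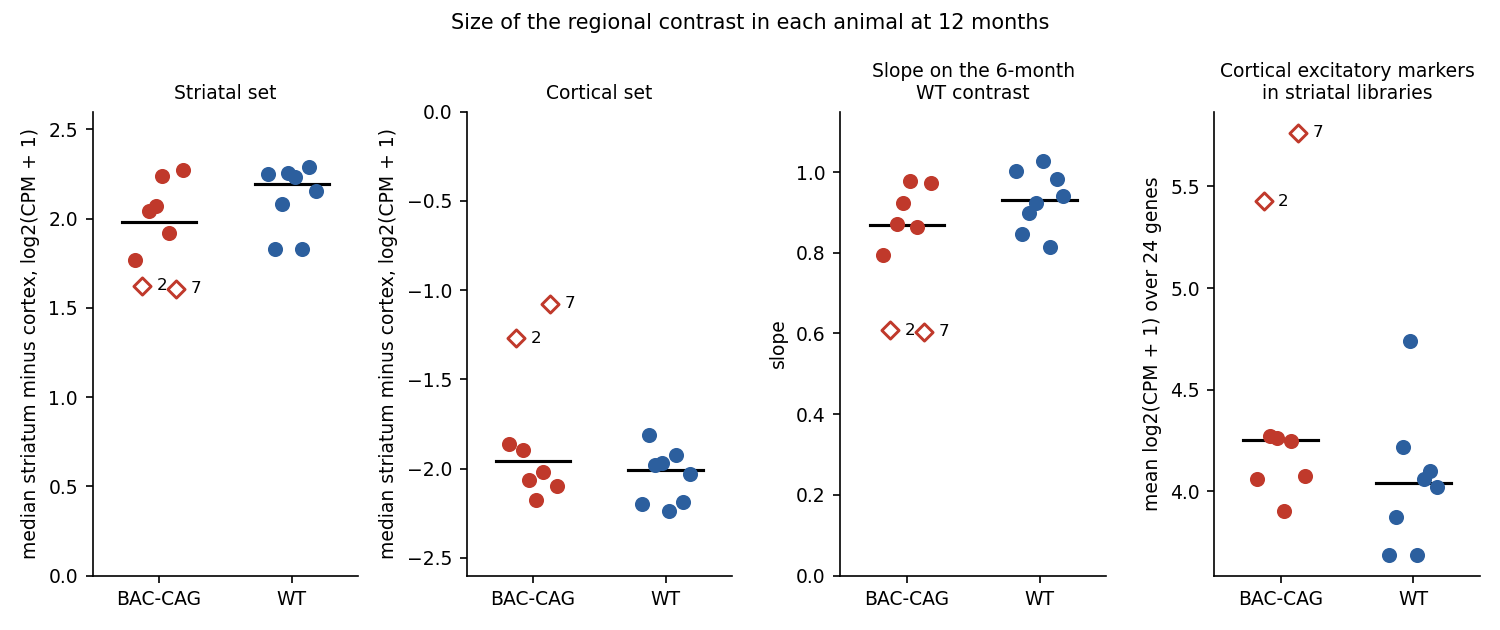
Per-animal size of the regional contrast at 12 months: the median striatal and cortical set differences of log2(CPM + 1), the slope on the WT contrast at 6 months, and the mean log2(CPM + 1) of 24 cortical excitatory markers in each striatal library. Points are animals and bars are medians; replicates 2 and 7, with slopes of 0.608 and 0.604, lie below all other animals in slope and above all other striatal libraries in the cortical markers.

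Gene by gene, edgeR called no difference of contrasts between BAC-CAG and WT mice. Of 19167 genes tested for the difference of contrasts, 0 (0.0%) had an adjusted p under 0.05 in edgeR's quasi-likelihood test; 1801 (9.4%) had an unadjusted p under 0.05, 893 (4.66%) with a lower striatum-minus-cortex value in BAC-CAG and 908 (4.74%) with a higher one. DESeq2 called 34 (0.177%), 24 lower and 10 higher, and limma-voom called 7, of which 5 were among the 34. For 14 genes (0.073%) the 8 BAC-CAG contrasts did not overlap the 8 WT contrasts on the log2(CPM + 1) scale. The regional set holds genes that entered through a large contrast in WT mice. In it, 66 striatal and 83 cortical genes had an unadjusted p under 0.05 with a smaller contrast in BAC-CAG. With a larger contrast there were 0 and 1. Without replicates 2 and 7 the cortical counts became 10 smaller and 5 larger, while the striatal counts became 38 smaller, 37 of them among the 66, and 2 larger; over all genes 6.99% then had an unadjusted p under 0.05. The genes below are the 12 with the smallest p, which had edgeR adjusted p-values from 0.0543 to 0.159 and are not calls of that test, and members of the lists.

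Zcwpw1, a histone reader known from meiosis, had the smallest p. In striatum it was at 6.10, 6.73 and 8.04 CPM in BAC-CAG and 7.29, 9.02 and 10.9 CPM in WT; in cortex it was at 7.08, 8.21 and 8.96 CPM in BAC-CAG and 6.66, 7.33 and 8.47 CPM in WT. Striatum exceeded cortex in 0 of 8 BAC-CAG pairs and in 8 of 8 WT pairs, and the pairs' contrasts, -0.37 to -0.13 and 0.04 to 0.49, did not overlap. The difference of contrasts was -0.50 (SE 0.08; edgeR quasi-likelihood, unadjusted p = 2.83e-06, Benjamini-Hochberg adjusted p = 0.0543; DESeq2 adjusted p = 0.00147), and -0.48 without replicates 2 and 7. In edgeR it passed the threshold when BAC-CAG replicate 2 (adjusted p = 0.0338), BAC-CAG replicate 8 (0.0489) or WT replicate 6 (0.0307) was left out. At 6 months its difference was -0.06, and in BACHD mice -0.28. Its annotated span, chr5:137787798-137822621 on the plus strand of GRCm38, shares 670 bases with the span of Pilra on the opposite strand.

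Cdk19, a kinase of the Mediator complex that links transcription factors to RNA polymerase, was not called between the tissues in BAC-CAG mice. It was at 109, 114 and 134 CPM in BAC-CAG striatum and 97.8, 116 and 132 CPM in cortex, a log2 difference of 0.01 (SE 0.04). In WT it was at 139, 148 and 159 CPM in striatum and 107, 121 and 132 CPM in cortex, a log2 difference of 0.30 (SE 0.04). The WT striatal libraries all lay above the BAC-CAG striatal ones, while the cortical libraries overlapped. The difference of contrasts was -0.31 (SE 0.05; edgeR adjusted p = 0.127, DESeq2 adjusted p = 0.00234), -0.29 without replicates 2 and 7, -0.20 (SE 0.05) at 6 months and -0.44 (SE 0.09) in BACHD mice. The gene lies at chr10:40339564-40483818 on the plus strand.

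Shank3, the postsynaptic scaffold of glutamatergic synapses onto spiny neurons, was higher in striatum in both genotypes. It was at 433, 486 and 615 CPM in BAC-CAG striatum and 585, 632 and 685 CPM in WT striatum, and at 380, 424 and 472 CPM and 368, 390 and 467 CPM in the respective cortices. Striatum exceeded cortex in all 8 pairs of both genotypes. The contrast was 0.25 (SE 0.05) in BAC-CAG and 0.65 (SE 0.05) in WT, and their difference was -0.41 (SE 0.07; edgeR adjusted p = 0.127, DESeq2 adjusted p = 6e-04), or -0.43 without replicates 2 and 7. It was -0.12 at 6 months. In the BACHD cohort it was 0.20 (SE 0.33), where the level of the gene was far lower in all groups (BACHD striatum 111 to 195 CPM, WT striatum 101 to 201 CPM).

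Pkp2, a plakophilin of cell junctions, had the largest difference in size among the genes named for it. It was at 2.55, 3.26 and 4.27 CPM in BAC-CAG striatum and 5.80, 6.67 and 8.02 CPM in WT striatum, with no overlap, and at 1.86, 2.75 and 4.26 CPM and 1.63, 2.89 and 4.24 CPM in cortex, where the groups covered the same range. The striatum-to-cortex contrast was 0.18 (SE 0.15) in BAC-CAG and not called, and 1.28 (SE 0.14) in WT. The difference of contrasts was -1.10 (SE 0.22; edgeR adjusted p = 0.159, DESeq2 adjusted p = 0.00636) and had the same value, -1.10, without replicates 2 and 7. The gene was named because it was the single gene called for this difference in the BACHD cohort, other animals in another table: there it was -1.47 (SE 0.15; edgeR adjusted p = 0.0214), with 2.35 to 3.0 CPM in BACHD striatum and 7.0 to 8.44 CPM in WT striatum. That call was lost when any animal except WT replicate 4 was left out, with adjusted p-values from 0.0656 to 0.139. At 6 months the BAC-CAG difference was -1.28 (SE 0.21; edgeR adjusted p = 0.119), with 2.32 to 3.90 CPM in BAC-CAG striatum and 4.13 to 8.01 CPM in WT striatum. The gene lies at chr16:16213318-16272712 on the plus strand.

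The other genes with the smallest p-values had contrasts that kept their direction, apart from Slco4c1. The kainate receptor accessory gene Neto2 had contrasts of 1.0 in BAC-CAG and 1.32 in WT, a difference of -0.33 (SE 0.07), and was at 90.4 to 142 CPM in BAC-CAG striatum against 125 to 183 CPM in WT. The phosphatase subunit gene Ppp4r4 had 0.96 and 1.29 (difference -0.34), the histone demethylase gene Kdm3a 0.62 and 0.86 (-0.25), the ubiquitin ligase gene Rnf213 0.21 and 0.59 (-0.39), the zinc finger gene Zfp180 0.33 and 0.59 (-0.27) and the chromatin gene Dek 0.24 and 0.47 (-0.24). Ankrd35 was higher in cortex by more in BAC-CAG mice (-0.78 and -0.09, difference -0.69). The organic anion transporter gene Slco4c1 (0.22 and -0.27, difference 0.48) and the protocadherin gene Pcdhac2 (-0.47 and -0.76, difference 0.28) had higher values in BAC-CAG. DESeq2 called all 9, with adjusted p-values from 0.0071 to 0.0488. Pcdhac2 shares its last exons with the other genes of its cluster and Dek overlaps Kdm1b on the opposite strand, so that their counts are uncertain.

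**Figure D5:**
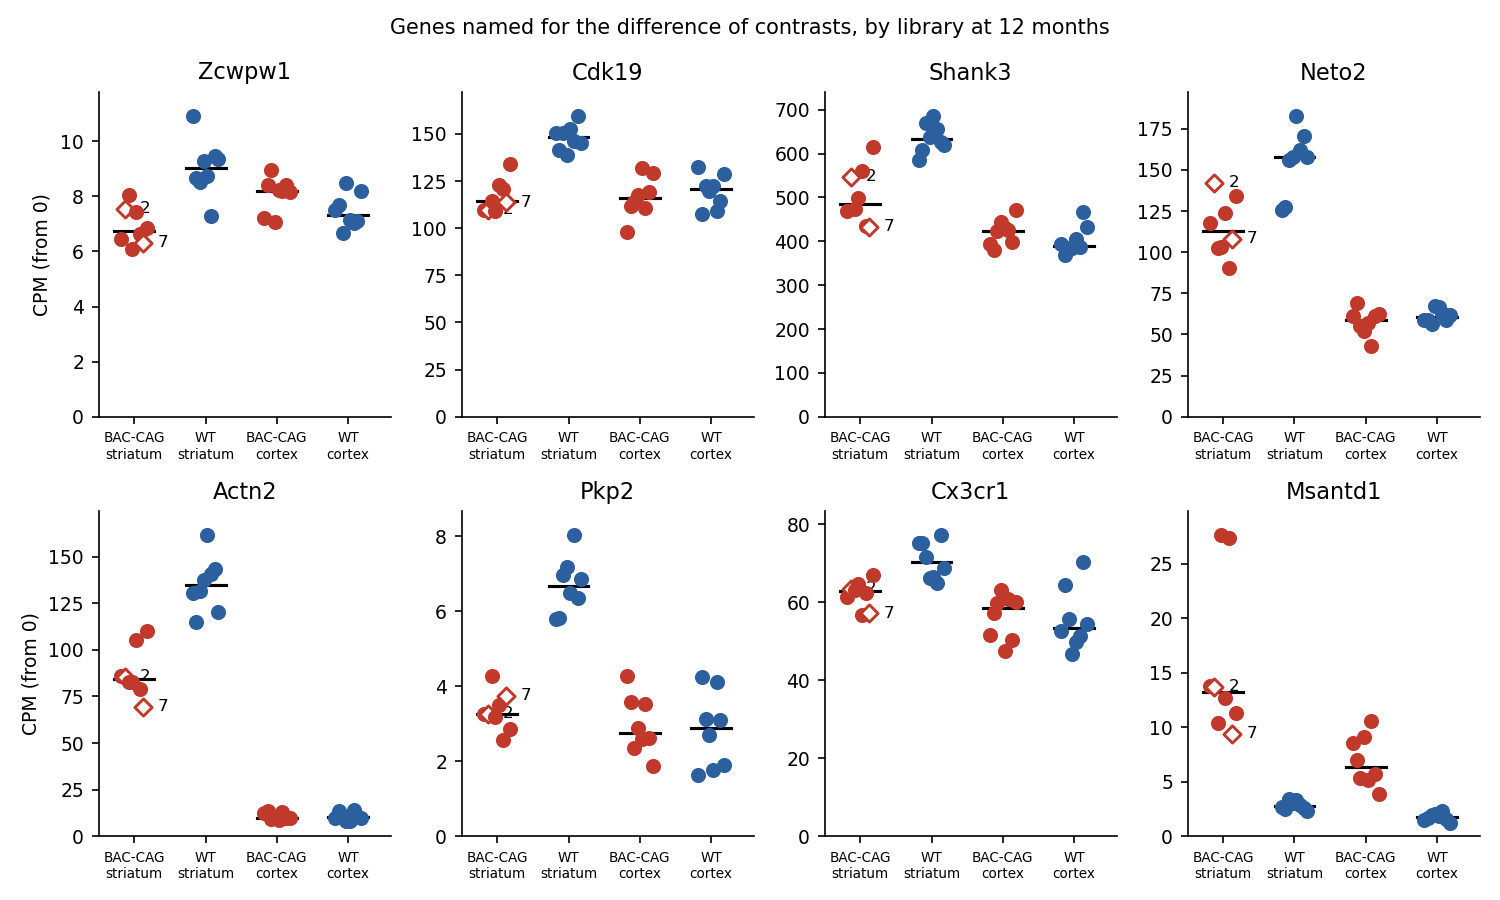
Level of 8 genes in each library at 12 months, in CPM on axes from 0, by genotype and tissue; each point is a library, with BAC-CAG striatal replicates 2 and 7 numbered. Pkp2 (2.55 to 4.27 CPM in BAC-CAG and 5.80 to 8.02 CPM in WT striatum), Cdk19 and Actn2 separate the genotypes in striatum and overlap in cortex, while Msantd1 is higher in BAC-CAG in both tissues.

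Of the 45 genes of striatal projection neurons, 17 had an unadjusted p under 0.05 for the difference of contrasts, beside 9.4% of all genes. All 17 had a lower striatum-minus-cortex value in BAC-CAG. The list's median difference was -0.24, or -0.15 without replicates 2 and 7, beside 0.00 over all genes. In striatum 42 of the 45 (93.3%) had a lower median in BAC-CAG than in WT, beside 50.1% of all genes, and 39 did so without the 2 replicates. In cortex 28 of the 45 did, beside 50.8% of all genes. Lists of other cells had such striatal shares too: 19 of 20 astrocyte genes, 17 of 18 endothelial genes, 15 of 15 choroid plexus and ependyma genes and 10 of 13 ubiquitous reference genes had a lower striatal median in BAC-CAG. Without replicates 2 and 7 these counts were 16, 16, 11 and 10 in the same order. The median shift in striatum was -0.27 on the log2(CPM + 1) scale for the genes of striatal projection neurons, -0.12 for astrocyte genes, -0.11 for endothelial genes, -0.15 for choroid plexus and ependyma genes and -0.04 for the reference genes. Without replicates 2 and 7 the shifts were -0.26, -0.08, -0.15, -0.09 and -0.04 in the same order. The part of other cells in the lower values was not tested. Actn2, an actin crosslinker of dendritic spines, was at 69.4, 84.2 and 110 CPM in BAC-CAG striatum and 115, 135 and 162 CPM in WT striatum, with no overlap, and near 10 CPM in both cortices. Its contrasts were 3.03 and 3.67, a difference of -0.65 (SE 0.17; edgeR adjusted p = 0.274, DESeq2 adjusted p = 0.0352). It was -0.55 without replicates 2 and 7, -0.53 at 6 months and -0.86 in BACHD mice. Rasd2 had a difference of -0.37 (SE 0.08; edgeR adjusted p = 0.16, DESeq2 adjusted p = 0.0188) and Scn4b -0.49 (SE 0.13). Both were under 0.1 in size at 6 months (-0.07 and -0.08).

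Of 8 indirect-pathway genes, 8 had a lower striatal median in BAC-CAG than in WT, or 7 without replicates 2 and 7, and in cortex 6 of 8 did. Over all genes, 50.1% had a lower BAC-CAG median in striatum and 50.8% in cortex. The list's median difference of contrasts was -0.15 with all animals and 0.04 without the 2 replicates, and 1 of the genes had an unadjusted p under 0.05 for it. That was Penk, at 528 to 1031 CPM in BAC-CAG striatum against 1054 to 1484 CPM in WT, with a difference of -0.71 (SE 0.32; edgeR adjusted p = 0.519) that became -0.54 without replicates 2 and 7. Its striatal libraries did not overlap between the genotypes, while those of cortex did. Drd2 (-0.40, SE 0.58) and Adora2a (-0.49, SE 0.48) had wide errors, beside BAC-CAG cortical medians of 0.845 and 1.89 CPM. Drd2 ran from 0.771 to 3.86 CPM in BAC-CAG cortex and from 0.569 to 7.37 CPM in WT cortex, highest in WT replicate 6. In striatum Drd2 was at 110 to 206 CPM in BAC-CAG and 157 to 231 CPM in WT. Of 10 direct-pathway genes, 7 had a lower median in BAC-CAG in striatum, or 5 without replicates 2 and 7, and 7 did in cortex. For the difference of contrasts, 1 of the 10 had an unadjusted p under 0.05, with a higher striatum-minus-cortex value in BAC-CAG. Tac1, Pdyn and Drd1 had differences of 0.22, 0.06 and -0.14. The list of dopamine and cAMP signalling had 11 of 35 genes at an unadjusted p under 0.05, beside 9.4% of all genes, and 9 of the 11 had a lower value in BAC-CAG. Its median was -0.15, or -0.07 without the 2 replicates. The BAC-CAG median was lower for 27 of the 35 in striatum and for 25 in cortex, beside 50.1% and 50.8% of all genes.

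Microglial and endothelial genes had differences that were as large without replicates 2 and 7. Of 20 microglial genes, 16 had an unadjusted p under 0.05, beside 9.4% of all genes. All 16 had a lower striatum-minus-cortex value in BAC-CAG, and the median difference of the 20 was -0.21 with and without those replicates. Cx3cr1, the fractalkine receptor of microglia, was at 56.6, 62.8 and 67.1 CPM in BAC-CAG striatum, 65.1, 70.3 and 77.2 CPM in WT striatum, 47.4, 58.6 and 63.1 CPM in BAC-CAG cortex and 46.7, 53.4 and 70.4 CPM in WT cortex. All 4 groups overlapped with their neighbours, and the difference of contrasts was -0.21 (SE 0.06; edgeR adjusted p = 0.286). The annotated span of Cx3cr1 shares bases with Gorasp1, Csrnp1 and Xirp1 on the same strand and with Wdr48 and Ttc21a on the opposite strand, so that its counts are uncertain. C1qa had -0.21 (SE 0.06) and Ctss -0.25 (SE 0.06). In striatum all 20 genes had a lower median in BAC-CAG, and in cortex 3 of 20 did, beside 50.1% and 50.8% of all genes. Among 18 endothelial genes, 8 had an unadjusted p under 0.05, all with a lower value in BAC-CAG (median -0.17, and -0.22 without the 2 replicates); Cdh5 had -0.20 (SE 0.09) and Flt1 -0.19 (SE 0.08). The summed microglial level was 619 to 700 CPM in BAC-CAG striatum and 657 to 824 CPM in WT striatum. At 6 months the 3 microglial genes named here had values between -0.15 and -0.02, and in BACHD mice between -0.06 and 0.07.

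Cortical excitatory genes had a median difference of 0.39, which became 0.07 without replicates 2 and 7. All 24 myelin genes had a negative difference (median -0.19), 0 of them at an unadjusted p under 0.05, and the median became 0.07 without the 2 replicates. Upper-layer genes had 0 of 12 at an unadjusted p under 0.05. Potassium channels had 11 of 55, 6 of them lower, and sodium and calcium channels 9 of 35, 7 of them lower. Over all genes the share was 9.4%, with 4.66% lower and 4.74% higher. Clustered protocadherins had 22 of 56, of which 5 were lower and 17 higher, with a median of 0.14, and 0.13 without the 2 replicates; these genes share exons and sequence, so that reads can be split between them. The circadian output gene Dbp had contrasts of 0.49 and 0.69, a difference of -0.21 (SE 0.06; edgeR adjusted p = 0.321).

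The mouse Htt gene itself was slightly higher in cortex. It was at 215, 238 and 251 CPM in BAC-CAG striatum and 248, 273 and 287 CPM in cortex, a log2 difference of -0.18 (SE 0.03), and in WT at 207, 212 and 230 CPM and 243, 255 and 265 CPM (-0.26). The difference of contrasts was 0.06 (SE 0.04). Msantd1 was higher in striatum in both genotypes, by 1.16 (SE 0.11) in BAC-CAG and 0.69 in WT. The pairs' log2 ratios of CPM ran from 0.69 to 1.60 in BAC-CAG and from 0.31 to 0.90 in WT and overlapped, and the difference was 0.47 (SE 0.17; edgeR adjusted p = 0.425). Msantd1 overlaps the annotated Htt gene by 4523 bases on the same strand, so that reads there can belong to either, and how reads of the human transgene were assigned is not given in the sources used here.

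For a difference between the sexes in the regional contrast of BAC-CAG mice, 0 of 19243 genes passed the threshold in edgeR (0.0%), with 1286 (6.68%) at an unadjusted p under 0.05, 3.0% lower and 3.68% higher in males; DESeq2 called 4. Replicates 2 and 7 are both male, and without them edgeR also called 0. At 6 months, 0 of 18662 genes were called for the difference between BAC-CAG and WT, with 1013 (5.43%) at an unadjusted p under 0.05 (2.92% lower and 2.51% higher in BAC-CAG) and 3 calls by DESeq2. In the BACHD cohort, Pkp2 was the 1 gene of 16368 called (0.00611%), with 1034 (6.32%) at an unadjusted p under 0.05 (3.38% lower and 2.94% higher in BACHD) and 8 calls by DESeq2. The labels tie libraries to animals, so that the errors given here are between animals.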

How the data were processed

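RNA was extracted from dissected striatum and cortex with RNeasy columns and sequenced as paired-end libraries; the labels' protocols name a stranded kit and the series' design text another one, with strand-specific sequencing. What the authors deposited are whole-number read counts per gene for each library (48795 genes in the BAC-CAG tables); alignment with STAR, counting with HTSeq and the GRCm38/mm10 build are named in the submitters' processing notes, while versions, the annotation and the strand setting of the counting are not given in the sources used here. Positions and overlaps are from GENCODE M21, in which 48435 of the genes were found by gene identifier. Further named genes, such as Oprm1 (with Ipcef1), Gnal, Rarb and Chat, also share bases with a neighbouring gene, so that their counts are uncertain too. Promoters are RefSeq's on GRCm38.p6, without chromosome 18.

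Counts were tested in R 4.3.3 with edgeR 4.0.16 (filterByExpr, TMM factors, glmQLFit and glmQLFTest), with the animal as a block and Benjamini-Hochberg adjustment over all genes tested. Genes were called at an adjusted p under 0.05. Striatum and cortex were compared within the BAC-CAG and the WT libraries separately, and the difference of the 2 contrasts was tested in all 32 libraries. The same difference was fitted at 6 months, in the BACHD cohort and between sexes. CPM refer to the TMM-scaled library size, and scores use log2(CPM + 1). Alternatives were DESeq2 1.42.0, limma 3.58.1 (voom), RLE factors, no low-count filter, no block, a threshold of 0.1, each animal left out and BAC-CAG replicates 2 and 7 left out. The animal tags pair the tissues: the deviations of an animal's 2 libraries from their group means had a median r of 0.395 (0.155 to 0.495, over 0.1 in 16 of 16 animals). No 2 libraries of a group were alike within sampling noise (smallest chi-square per degree of freedom 4.31). The scripts were tested on simulated data.

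The members, the 33 gene lists and the comparisons were chosen with earlier results of these data known. Named genes are those with a mean of at least 5 CPM and, per direction, the 10 largest and the 5 most abundant 2-fold contrasts, the 12 smallest p-values of the difference, up to 6 and 3 genes per list by p, Htt and Msantd1, and up to 4 called genes of the other fits; predicted genes were left out. Vamp8 and Gpr161 were named after their values were seen. Pkp2, with a mean of 3.95 CPM in the 12-month BAC-CAG libraries, lay under the level of 5 CPM and was named for its call in the BACHD cohort. Some genes that the rule names are not reported here.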

Additional observations from a re-analysis of the deposited data

Results flagged for a closer look

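Of 100 groups of 8 scores checked, 5 had 1 animal far from the others. Chance flags about 1 in 20 independent groups, but these groups share animals, and 3 of the 5 flags are WT replicate 2. The part of chance in them was not tested. The choroid plexus and ependyma list had a striatum-minus-cortex score of 2.78 in BAC-CAG replicate 1, with the next animal at 1.17, and of 3.10 in WT replicate 4, with the next at 1.12. WT replicate 2 stood apart in 3 lists: matrix genes at -0.29 (next 0.02), potassium channels at -0.23 (next -0.34) and upper cortical layers at -1.01 (next -1.27). The difference of contrasts of Pkp2 between BACHD and WT mice was -1.47 (edgeR adjusted p = 0.0214), in the same direction as in BAC-CAG mice at 6 months and 12 months.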

How the results depend on the processing

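The called and 2-fold counts of the regional contrasts and their split by direction stayed within 1.5 times under every alternative run. Leaving out single animals gave 10935 to 11624 called genes in BAC-CAG and 11835 to 12358 in WT, and 2279 to 2533 and 2714 to 2811 with a 2-fold difference; without the replicate block BAC-CAG had 11122. The difference of contrasts at 12 months, with 0 calls, had 34 with DESeq2, 7 with limma-voom, 1 without the replicate block, 1 at a threshold of 0.1, and 0 to 10 when 1 animal was left out (10 without BAC-CAG replicate 8, 3 without BAC-CAG replicate 2, 1 without WT replicate 6 and 1 without WT replicate 8); the cause was not tested. DESeq2, added after seeing the data, gave 3 at 6 months and 8 in the BACHD cohort, where leaving out 1 animal gave 0 to 15 (15 without WT replicate 4). DESeq2 gave 4 for the sexes. The per-animal set scores follow their construction: with a pseudocount of 0.1 the striatal means were 2.51 (BAC-CAG) and 2.77 (WT) and the WT cortical mean -2.55; with a set at a log2 difference of at least 1 they were 1.18, -1.12, 1.29 and -1.24 (BAC-CAG striatal and cortical, WT striatal and cortical); with the mean over genes the WT values were 2.33 and -2.20. Of the named genes' values, 5401 kept direction and side of the threshold, 30 of the difference passed it under an alternative, 15 lost it and 0 turned around. Those lost were Pkp2 in BACHD mice (7), Gpr17 and mt-Atp8 without the block, and mt-Cytb without the block or without BAC-CAG replicates 1, 2, 5, 6 or 2 and 7. Depth limits genes with few cortical counts, such as Isl1, Lhx8 and Six3.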
